A study of Mus musculus with 12 samples.

Results

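Rny1, Rny3, Scarna2, Scarna6, Scarna8, Scarna10, Scarna17, Rnu12, Rpph1 and Rprl2 are 10 short non-coding RNAs of the mouse: Y RNAs, guide RNAs of the Cajal body, the spliceosomal U12 RNA and RNase P RNAs. Their probes were those that the platform annotation pairs with exactly 1 of these symbols, and where a gene had several the probe was chosen by its mean over the 12 arrays, the highest being used. All 10 were found among 22180 genes measured; Scarna17 had 2 such probes and the other genes 1 each. The symbols themselves were chosen with earlier results of these arrays in view, so counts over the 10 describe them and do not stand as independent support for a shared pattern.

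Whole lung came from 12 female mice aged 10 weeks, 1 array per mouse and 3 mice in each of 4 groups: wild type baseline, Zmpste24-/- baseline, wild type ventilated and Zmpste24-/- ventilated. Zmpste24 encodes the metalloprotease that processes prelamin A, the precursor of a protein of the nuclear lamina, and the labels describe the mutants as deficient for it without giving the allele. Baseline mice were intact. Ventilated mice breathed air (inspired oxygen fraction 0.21) through a ventilator for 2.5 hours, with 100 breaths per minute driven at 15 cmH2O and without pressure at the end of expiration. The samples used here hold no group that was handled or anaesthetised without ventilation, so ventilation and the handling that goes with it cannot be told apart.

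Y RNAs are short transcripts of RNA polymerase III that are bound by the Ro60 and La proteins and have been linked to RNA quality control and to the start of DNA replication. Small Cajal body RNAs (scaRNAs) sit in a nuclear body built around coilin and guide methylation and pseudouridylation of spliceosomal RNAs. U12 RNA is part of the minor spliceosome, which removes a rare class of introns, and RNase P RNA is the catalytic RNA that trims the leader of transfer RNA precursors.

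In intact lungs without Zmpste24, 8 of the 10 RNAs were higher than in wild type: Rny1, Rny3, Scarna6, Scarna8, Scarna10, Rnu12, Rpph1 and Rprl2 passed the test, with differences between 0.70 and 1.92 on the log2 scale, where 2.2% of all genes passed as higher. After ventilation 4 were higher in Zmpste24-/- lungs (Rny1, Rny3, Scarna6 and Rnu12), where 4.72% of genes were. Ventilation changed none of the 10 in wild type lungs by this test, where 7.2% of genes passed, and in Zmpste24-/- lungs Scarna10 and Rpph1 fell, as did 7.52% of genes. Passing means an adjusted p under 0.05 in limma, with Benjamini-Hochberg adjustment over all 22180 genes. Values are log2 expression as deposited, arrays are given in the order 1, 2 and 3, and differences are log2 differences ± standard error with n = 3 per group. In whole lung, a change in the share of cells of a type and a change in RNA per cell cannot be told apart.

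**Figure D1:**
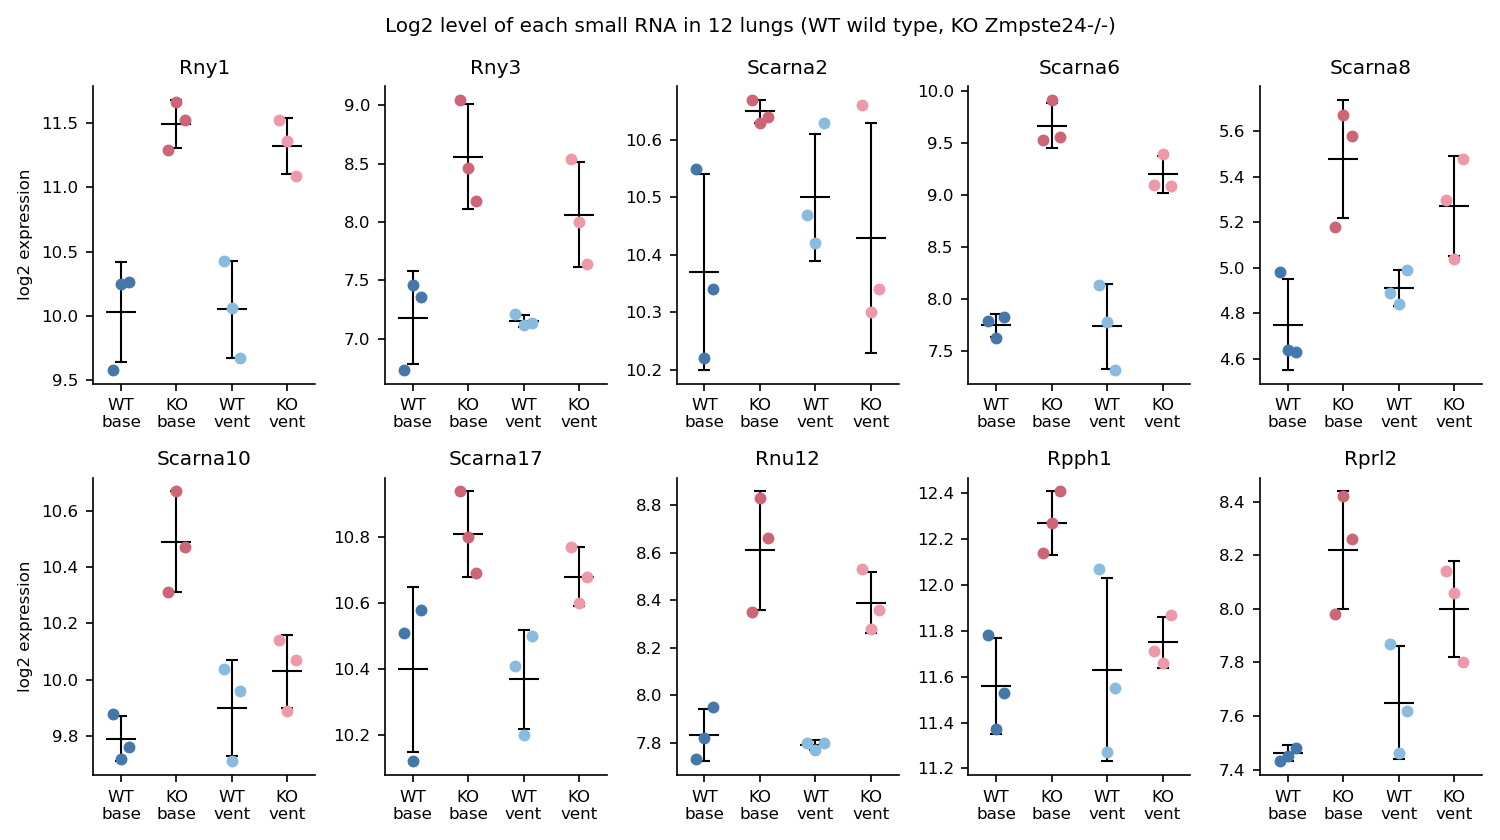
Log2 expression (vertical axis, a separate range in each panel) of the 10 small RNAs in 4 groups of 3 lungs; points are single arrays, the bar is the group mean and the whiskers are the SD. All 3 Zmpste24-/- baseline arrays lie above all 3 wild type baseline arrays in each of the 10 panels.

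The targeted gene followed the genotype labels: Zmpste24 ranged from 8.50 to 9.28 in wild type lungs and from 5.01 to 5.91 in Zmpste24-/- lungs. Where its probe lies relative to the disrupted part of the gene is not known here. Array medians lay between 5.345 and 5.423, and correlations across genes were 0.991 to 0.9958 within groups and 0.9734 to 0.9906 between groups. The tissue label was checked against lung markers. The mean of 5 alveolar type 2 markers was 11.75 to 12.08 in the 12 arrays and that of 5 alveolar type 1 markers 9.84 to 10.44, and none of these 10 genes lay under the median gene.

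Rny1 and Rny3 are the Y RNAs of the mouse and lie 6346 bases apart in RefSeq (GRCm38.p6), with no other measured gene between them. Rny1 stood at 9.58, 10.25 and 10.26 in intact wild type lungs and at 11.29, 11.66 and 11.52 in intact Zmpste24-/- lungs. After ventilation it stood at 10.43, 10.06 and 9.67 in wild type lungs and at 11.52, 11.36 and 11.09 in Zmpste24-/- lungs. Every mutant array was above every wild type array in both conditions, while baseline and ventilated lungs of one genotype overlapped. The genotype difference of Rny1 was 1.46 ± 0.20 at baseline (adjusted p = 0.00156), a 2.75-fold higher level, and 1.27 ± 0.20 after ventilation (adjusted p = 0.00176), 2.41-fold higher.

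Rny3 stood at 6.73, 7.46 and 7.36 in intact wild type lungs and at 9.05, 8.46 and 8.18 in intact Zmpste24-/- lungs. In ventilated lungs it was 7.21, 7.12 and 7.13 in wild type and 8.54, 8.0 and 7.64 in Zmpste24-/-. Genotypes again did not overlap, but the spread among mutant lungs (SD 0.45 in both conditions) was wide, with array 1 the highest of each mutant group. The baseline difference was 1.38 ± 0.24 (adjusted p = 0.00526). The ventilated difference of 0.91 ± 0.24 passed (adjusted p = 0.0293) and lost its call without any of 4 arrays: wild type ventilated array 2 (adjusted p = 0.0881) or 3 (0.0842), or Zmpste24-/- ventilated array 1 (0.124) or 2 (0.0675).

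The genes of proteins that bind Y RNAs were counted in the same comparisons. Of 11 genes for Y RNA partners, 0 were higher and 1 was lower in intact Zmpste24-/- lungs: Mov10, an RNA helicase, fell by 0.38 ± 0.09 (adjusted p = 0.0249). In ventilated lungs 2 were higher in mutants, the splicing regulator Ptbp1 (0.37 ± 0.09, adjusted p = 0.0141) and Zcchc3 (0.38 ± 0.09, adjusted p = 0.0218), and Mov10 was lower (-0.50 ± 0.09, adjusted p = 0.00389). The median genotype difference of the 11 genes was -0.11 at baseline and 0.01 after ventilation, against -0.01 and 0.01 over all genes. Over all genes 2.2% passed as higher at baseline and 4.72% after ventilation.

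Among the 5 scaRNAs, Scarna6 had the largest genotype difference of the 10 RNAs. Its values were 7.79, 7.63 and 7.83 in intact wild type lungs and 9.53, 9.92 and 9.56 in intact Zmpste24-/- lungs. Ventilated lungs gave 8.14, 7.78 and 7.32 in wild type and 9.10, 9.40 and 9.09 in Zmpste24-/-. Wild type and mutant arrays were well separated in both conditions, by 1.92 ± 0.17 at baseline (adjusted p = 8.62e-05, 3.79-fold) and 1.45 ± 0.17 after ventilation (adjusted p = 0.000275, 2.73-fold). The 3 ventilated mutant lungs were all below the 3 baseline mutant lungs, but that difference, -0.48 ± 0.17, did not pass (adjusted p = 0.0805).

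Scarna10, which guides modification of the U5 spliceosomal RNA, was highest in intact mutants. It stood at 9.88, 9.72 and 9.76 in intact wild type lungs, 10.31, 10.67 and 10.47 in intact Zmpste24-/- lungs, 10.04, 9.71 and 9.96 in ventilated wild type lungs and 10.14, 9.89 and 10.07 in ventilated Zmpste24-/- lungs. Only the mutant baseline group stood apart, since the other groups overlapped one another in every pair but 1, wild type baseline below Zmpste24-/- ventilated. The genotype difference was 0.70 ± 0.11 at baseline (adjusted p = 0.00313) and 0.13 ± 0.11 after ventilation (adjusted p = 0.534, 95% interval -0.11 to 0.37). Ventilation lowered Scarna10 in Zmpste24-/- lungs by a difference of -0.45 ± 0.11 (adjusted p = 0.0134). Without Zmpste24-/- baseline array 2 or Zmpste24-/- ventilated array 2 this call was lost (adjusted p = 0.0633 and 0.0676).

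Scarna8 was dim. Its values were 4.98, 4.64 and 4.63 in intact wild type lungs, 5.18, 5.67 and 5.58 in intact Zmpste24-/- lungs, 4.89, 4.84 and 4.99 in ventilated wild type lungs and 5.30, 5.04 and 5.48 in ventilated Zmpste24-/- lungs. All wild type values lay under the array medians, as did Zmpste24-/- baseline array 1 and Zmpste24-/- ventilated arrays 1 and 2. The size of a difference is therefore uncertain. Mutant arrays were above wild type arrays in both conditions. The baseline difference of 0.73 ± 0.14 passed (adjusted p = 0.00934) and the ventilated difference of 0.37 ± 0.14 did not (adjusted p = 0.123).

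Scarna2, a guide for methylation of U2 RNA, and Scarna17 had the smallest genotype differences at baseline. Scarna2 was 10.55, 10.22 and 10.34 in intact wild type lungs against 10.67, 10.63 and 10.64 in intact Zmpste24-/- lungs. The arrays did not overlap, but the difference of 0.28 ± 0.11 did not pass (adjusted p = 0.159). In ventilated lungs Scarna2 ranged from 10.42 to 10.63 in wild type and from 10.30 to 10.66 in Zmpste24-/-, a difference of -0.07 ± 0.11 (adjusted p = 0.765). Scarna17 was 10.51, 10.12 and 10.58 against 10.94, 10.80 and 10.69 at baseline, and 10.41, 10.20 and 10.50 against 10.77, 10.60 and 10.68 after ventilation. Mutant arrays were higher without overlap in both conditions, yet neither difference passed (0.40 ± 0.12, adjusted p = 0.0689, and 0.31 ± 0.12, adjusted p = 0.126). The mean of both Scarna17 probes gave 0.46 ± 0.13 at baseline and passed narrowly (adjusted p = 0.0498).

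Protein genes of the scaRNA particles and the Cajal body were examined beside the scaRNAs. Of 22 genes measured of 25 listed, 0 passed in either direction in the baseline genotype comparison, where 6.31% of all genes did. Their median difference was -0.08. In ventilated lungs 1 was higher in mutants, Snu13, a core protein of box C/D particles (0.38 ± 0.09, adjusted p = 0.0165), where 4.72% of all genes were. Ventilation raised 2 of the 22 in wild type lungs, Nop58 (0.84 ± 0.15, adjusted p = 0.00469) and Ddx20 (0.30 ± 0.09, adjusted p = 0.0485). Zmpste24-/- lungs raised 8 and lowered none, led by the box C/D core proteins Nop58 (1.41 ± 0.15, adjusted p = 4.24e-05) and Nop56 (0.79 ± 0.10, adjusted p = 0.000139) and by Nolc1 (0.53 ± 0.12, adjusted p = 0.006), a chaperone of these particles. In the same comparison none of the 5 scaRNAs was higher.

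Rnu12, the RNA that pairs with the branch site of minor introns, separated the genotypes in both conditions. It stood at 7.73, 7.82 and 7.95 in intact wild type lungs and at 8.35, 8.83 and 8.66 in intact Zmpste24-/- lungs. In ventilated lungs it was 7.80, 7.77 and 7.80 in wild type and 8.53, 8.28 and 8.36 in Zmpste24-/-. The lowest mutant value lay above the highest wild type value in each condition. The difference was 0.78 ± 0.11 at baseline (adjusted p = 0.00206, 1.72-fold) and 0.60 ± 0.11 after ventilation (adjusted p = 0.0049, 1.52-fold). Of 10 minor spliceosome protein genes measured of 12 listed, 0 passed in either genotype comparison. Of all genes 6.31% passed at baseline and 10.8% after ventilation. Ventilation lowered 1 in wild type lungs, Scnm1 (-0.32 ± 0.09, adjusted p = 0.0396), and raised 2 in Zmpste24-/- lungs, Snrnp48 (0.27 ± 0.07, adjusted p = 0.0173) and Armc7 (0.37 ± 0.12, adjusted p = 0.0469).

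Rpph1 is the RNA subunit of RNase P. RefSeq places it beside Parp2, a poly(ADP-ribose) polymerase gene involved in DNA repair. The stretch from within Rpph1 up to Parp2 is shown because the RNA and its neighbour had different values across the groups. The 231 bases run to the start of Parp2 on the plus strand (GRCm38.p6, chr14:50807666-50807896). The first 106 bases lie in Rpph1 and the next 125 lie between the genes, and the octamer ATTTGCAT, at bases 195 to 202, is in capitals.
Rpph1 to Parp2: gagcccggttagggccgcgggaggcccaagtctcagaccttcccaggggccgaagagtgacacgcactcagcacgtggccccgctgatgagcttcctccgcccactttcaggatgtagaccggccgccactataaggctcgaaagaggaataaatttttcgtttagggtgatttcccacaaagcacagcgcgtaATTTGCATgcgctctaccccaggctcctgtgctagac
Both strands were searched. The octamer, a known element of small RNA promoters, is held by 1.74% of 32851 RefSeq promoter sequences. The letters TATAAA (13.6% of promoters), ACCNTNAC (8.78%), a core of the proximal sequence element, and a core of the ZNF143 site (1.88%) were not found in this window. The shares were counted over whole promoter sequences, whose length can differ from that of this window. Only exact letters were searched, so close variants of these elements would be missed, and the strand of Rpph1 was not given. A match is a description of these letters and no evidence of binding.

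Rpph1 stood at 11.78, 11.37 and 11.53 in intact wild type lungs and at 12.14, 12.27 and 12.41 in intact Zmpste24-/- lungs. It was 12.07, 11.27 and 11.55 in ventilated wild type lungs and 11.71, 11.66 and 11.87 in ventilated Zmpste24-/- lungs. The genotypes were apart at baseline and overlapped after ventilation, where wild type array 1 was the highest of all 6. The baseline difference of 0.71 ± 0.17 passed (adjusted p = 0.0219). It no longer passed when 1 array was left out, namely wild type baseline array 2 (adjusted p = 0.0854) or 3 (0.0544), or Zmpste24-/- baseline array 2 (0.0546) or 3 (0.0938). The ventilated difference was 0.12 ± 0.17 (adjusted p = 0.732). Parp2, whose start lies beside Rpph1, differed by -0.09 ± 0.13 at baseline (adjusted p = 0.774) and -0.22 ± 0.13 after ventilation (adjusted p = 0.34). Ventilation lowered Rpph1 in Zmpste24-/- lungs by a difference of -0.52 ± 0.17 (adjusted p = 0.0469), close to the threshold. That call was lost when any of 8 arrays was left out: wild type baseline 3, wild type ventilated 3, and each of the 6 Zmpste24-/- arrays (adjusted p up to 0.159).

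Rprl2, an RNase P RNA-like gene, was 7.43, 7.45 and 7.48 in intact wild type lungs and 7.98, 8.42 and 8.26 in intact Zmpste24-/- lungs. In ventilated lungs it was 7.87, 7.46 and 7.62 in wild type and 8.14, 8.06 and 7.80 in Zmpste24-/-. The tight wild type baseline group lay below all mutant lungs, and ventilated groups overlapped. The difference was 0.76 ± 0.13 at baseline (adjusted p = 0.0042) and 0.35 ± 0.13 after ventilation (adjusted p = 0.107). Rprl2 resembles Rpph1 and Y RNAs have many near-copies in the genome, and whether probes of such copies cross-hybridise was not tested. Of 11 protein genes of RNase P and the related RNase MRP, 0 passed in the baseline genotype comparison, where 6.31% of all genes did. In ventilated mutants 1 was higher, Pop5 (0.42 ± 0.11, adjusted p = 0.0296), where 4.72% of all genes were. Ventilation raised Rpp38 in wild type lungs (0.42 ± 0.11, adjusted p = 0.0333) and lowered Rpp25 in Zmpste24-/- lungs (-0.59 ± 0.17, adjusted p = 0.0253).

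**Figure D2:**
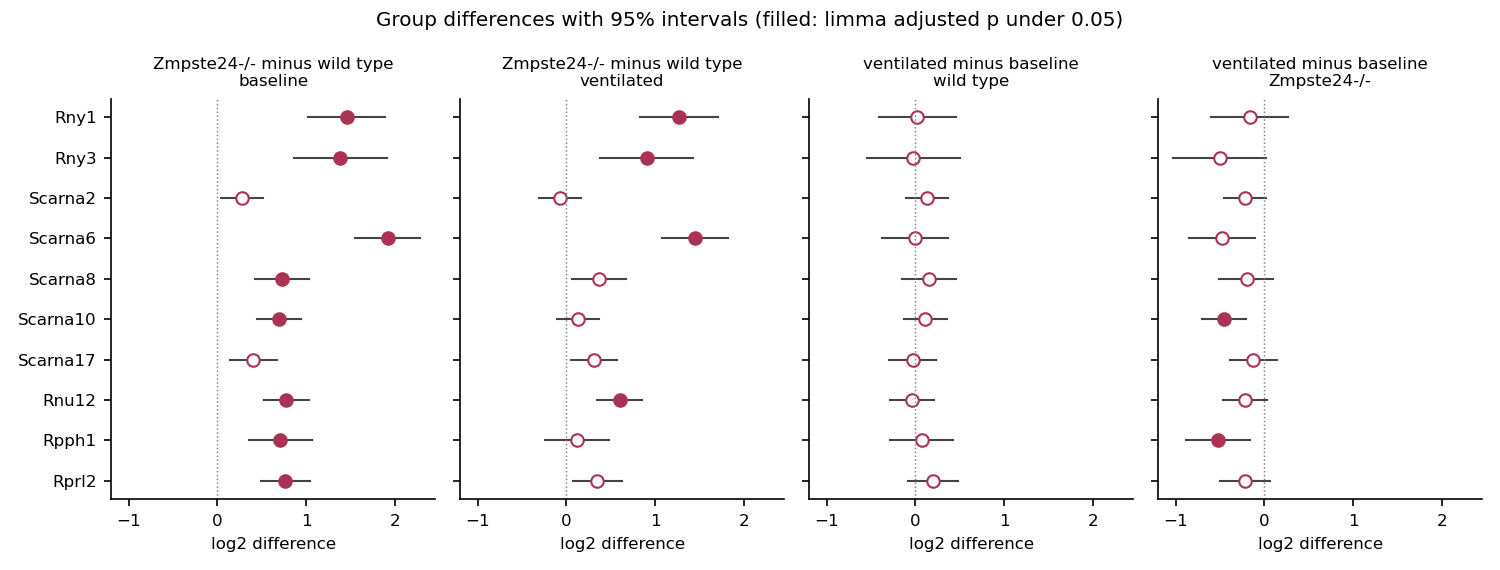
Log2 differences of the 10 small RNAs (horizontal axis) in the 4 pairwise comparisons, with 95% intervals from limma; filled points passed an adjusted p under 0.05. In the baseline genotype panel 8 points are filled, from 0.70 for Scarna10 to 1.92 for Scarna6, and in the wild type ventilation panel none is.

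Read as counts, the baseline genotype comparison gave 8 of 10 higher and 0 lower, where 2.2% of all genes passed as higher and 6.31% passed in either direction. In all 10 the mutant arrays lay above the wild type arrays without overlap, which held for 9.67% of genes. The median difference was 0.75, with a range from 0.28 to 1.92, against a median of -0.01 over all genes. In ventilated lungs 4 of 10 were higher, where 4.72% of genes passed as higher and 10.8% in either direction, and 6 of 10 did not overlap, against 14.8% of genes. The median there was 0.36, from -0.07 for Scarna2 to 1.45 for Scarna6. The members without overlap in ventilated lungs were Rny1, Rny3, Scarna6, Scarna8, Scarna17 and Rnu12. These 2 comparisons use different arrays.

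Ventilation of wild type lungs changed 0 of 10, where 7.2% of genes passed in limma. The smallest adjusted p was 0.443 for Rprl2. By limma 0 of the 10 had an unadjusted p under 0.05, a share that was not counted over all genes. Differences ran from -0.04 to 0.20 with a median of 0.05, and the widest 95% interval, that of Rny3, reached from -0.55 to 0.50. In Zmpste24-/- lungs 2 of 10 were lower after ventilation, where 7.52% of genes passed as lower and 16.4% in either direction. The 10 differences ran from -0.52 to -0.13 with a median of -0.22. Besides Scarna10 and Rpph1, Scarna6 was lower without overlap and did not pass. The share of all genes that were lower without overlap in this comparison was not counted. This comparison shares the Zmpste24-/- baseline arrays with the baseline genotype comparison, so arrays that are high in that group enter both.

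Whether the effect of ventilation differed by genotype was tested by the interaction, in which 0 of 10 passed and 0.316% of all genes did. The interaction estimates ran from -0.60 to -0.09 with a median of -0.39, and 4 of 10 had an unadjusted p under 0.05 in limma: Scarna10 (-0.57, 95% interval -0.91 to -0.22), Rpph1 (-0.60, -1.11 to -0.09), Rprl2 (-0.42, -0.81 to -0.02) and Scarna2 (-0.35, -0.68 to -0.02). The 0.316% is for adjusted p, and the share of all genes with an unadjusted p under 0.05 was not counted. The smallest adjusted p was 0.16, for Scarna10. The larger genotype differences at baseline than after ventilation in Scarna10 and Rpph1 are therefore not shown to differ between conditions. For Rny1 the estimate was -0.19, with an interval from -0.80 to 0.43.

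Other short RNAs on the array were also higher in mutants, but not all of them. Of 73 small nucleolar RNAs, many of which guide modification of ribosomal RNA, 39 were higher in intact Zmpste24-/- lungs, where 2.2% of all genes passed as higher. There 1 was lower, and the median difference was 0.62. In ventilated lungs, where 4.72% of all genes passed as higher, 25 were higher and 1 lower, with a median of 0.29. The smallest adjusted p at baseline belonged to Snora34 (1.71 ± 0.11, adjusted p = 7.36e-06), Snora73a (1.60 ± 0.12, adjusted p = 2.91e-05) and, with equal values, Snora15 (1.61 ± 0.14) and Snord13 (2.39 ± 0.20; both adjusted p = 8.62e-05). Of 7 remaining small RNA genes (Rn7sk, Rnu11, Rnu3a, Rnu5g, Rprl1, Terc and Vaultrc5) 1 was higher, Rnu3a, which encodes a U3 RNA of ribosomal RNA processing (1.97 ± 0.25 at baseline, adjusted p = 0.000854, and 0.99 ± 0.25 after ventilation, adjusted p = 0.021). The median of those 7 was 0.04 at baseline. RNA was prepared with Trizol and a silica column, and how much short RNA each preparation kept was not measured, so its part in these differences was not tested.

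**Figure D3:**
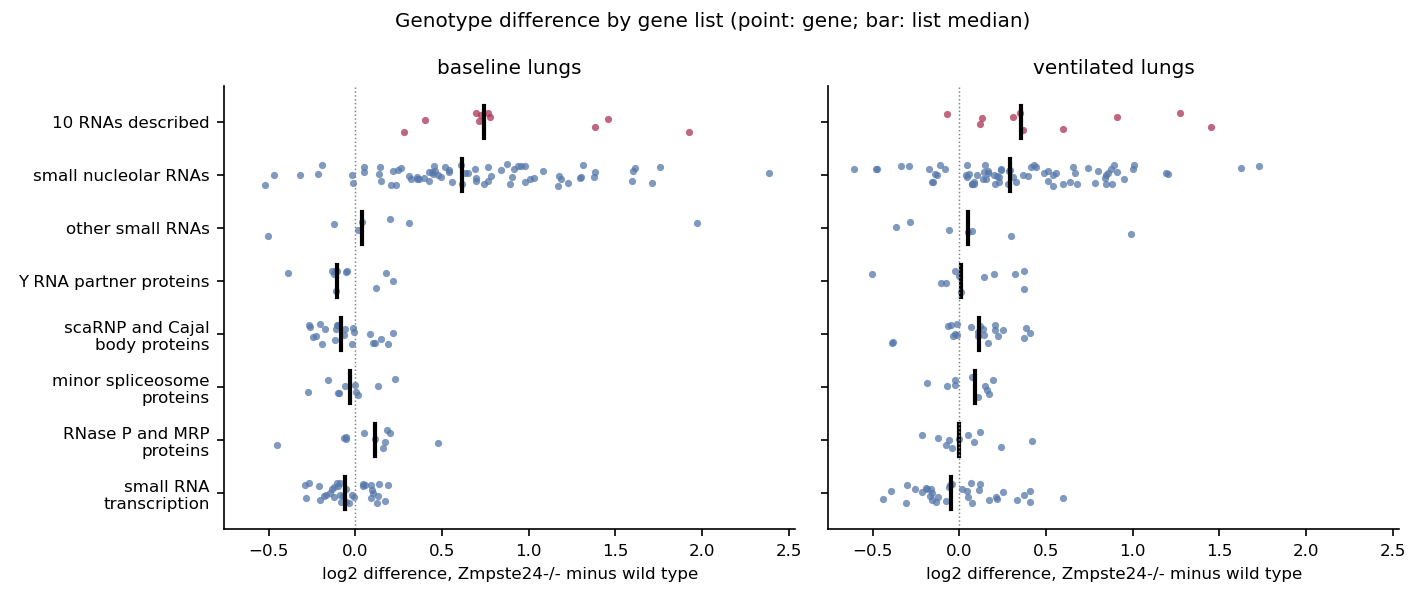
Genotype difference (Zmpste24-/- minus wild type, log2, horizontal axis) of each gene in 8 lists, in baseline lungs and in ventilated lungs; each point is a gene, scattered vertically for legibility, and the black bar is the list median. The 10 small RNAs have a median of 0.75 at baseline and 0.36 after ventilation, the small nucleolar RNAs 0.62 and 0.29, and the medians of the 5 protein lists lie between -0.11 and 0.12.

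By array, the median of the 10 RNAs was 8.68 to 8.86 in intact wild type lungs, 9.92 to 10.28 in intact Zmpste24-/- lungs, 8.74 to 9.09 in ventilated wild type lungs and 9.58 to 9.64 in ventilated Zmpste24-/- lungs. Within groups single arrays led for many RNAs at once. Wild type ventilated array 1 was the highest of its group for 6 of the 10 and array 2 the lowest for 8, while Zmpste24-/- ventilated array 1 was the highest for 7. The 10 RNAs are therefore not 10 independent observations of a genotype.

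Small RNA transcription and processing were examined with 34 measured genes of 36 listed. The list covers RNA polymerase III, its factors, the SNAP complex, Integrator, which processes spliceosomal RNAs, and the little elongation complex (Ell, Ice1 and Ice2). That complex acts with RNA polymerase II on spliceosomal RNA genes. Scarna6, Scarna8 and Scarna10 lie in protein-coding genes, and which of the RNAs studied here depend on the listed genes was not tested. At baseline 0 of the 34 listed genes measured passed by genotype, with a median of -0.06. In ventilated lungs 5 were higher and 3 lower in mutants, and the 3 with the smallest adjusted p were the Integrator subunits Ints12 (0.41 ± 0.07, adjusted p = 0.00366), Ints6 (0.60 ± 0.12, adjusted p = 0.00649) and Ints5 (0.41 ± 0.09, adjusted p = 0.00893). Ventilation raised 4 and lowered 1 in wild type lungs, where 815 of all genes passed as higher and 782 as lower. Those raised included Polr3d, a polymerase III subunit (0.58 ± 0.10, adjusted p = 0.00321), Ints6 (0.64 ± 0.12, adjusted p = 0.0057) and Bdp1, part of the initiation factor TFIIIB (0.33 ± 0.08, adjusted p = 0.0203). In Zmpste24-/- lungs ventilation raised 8 and lowered 1, where 1972 of all genes passed as higher and 1669 as lower. Ints6 (1.19 ± 0.12, adjusted p = 2.41e-05), Bdp1 (0.52 ± 0.08, adjusted p = 0.000445) and Ell (0.72 ± 0.12, adjusted p = 0.000816) had the smallest adjusted p of the list. Over all 5 protein lists, 1 of 88 measured genes passed in the baseline genotype comparison, against 6.31% of all genes.

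Several of the RNAs lie in or beside protein-coding genes in RefSeq, without regard to strand. Scarna6 lies in Atg16l1, an autophagy gene, Scarna8 in Haus6, a microtubule gene, and Scarna10 in Ncapd2, a condensin subunit. Atg16l1 differed by 0.05 ± 0.09 between genotypes at baseline (adjusted p = 0.812), Haus6 by -0.20 ± 0.11 (adjusted p = 0.306) and Ncapd2 by -0.13 ± 0.12 (adjusted p = 0.58). None of these containing genes passed where its scaRNA was higher. Of all genes only 6.31% passed at baseline and 10.8% after ventilation, so so few genes show little. After ventilation Ncapd2 was lower in mutants (-0.44 ± 0.12, adjusted p = 0.0259), while Atg16l1 stood at 0.00 ± 0.09. Rnu12 neighbours Poldip3, which differed by 0.07 ± 0.09 at baseline (adjusted p = 0.73), and Scarna17 neighbours Acaa2 (0.16 ± 0.13, adjusted p = 0.536). Scarna17 lies in the non-coding gene Gm41774, which has no value in the gene table used here.

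**Figure D4:**
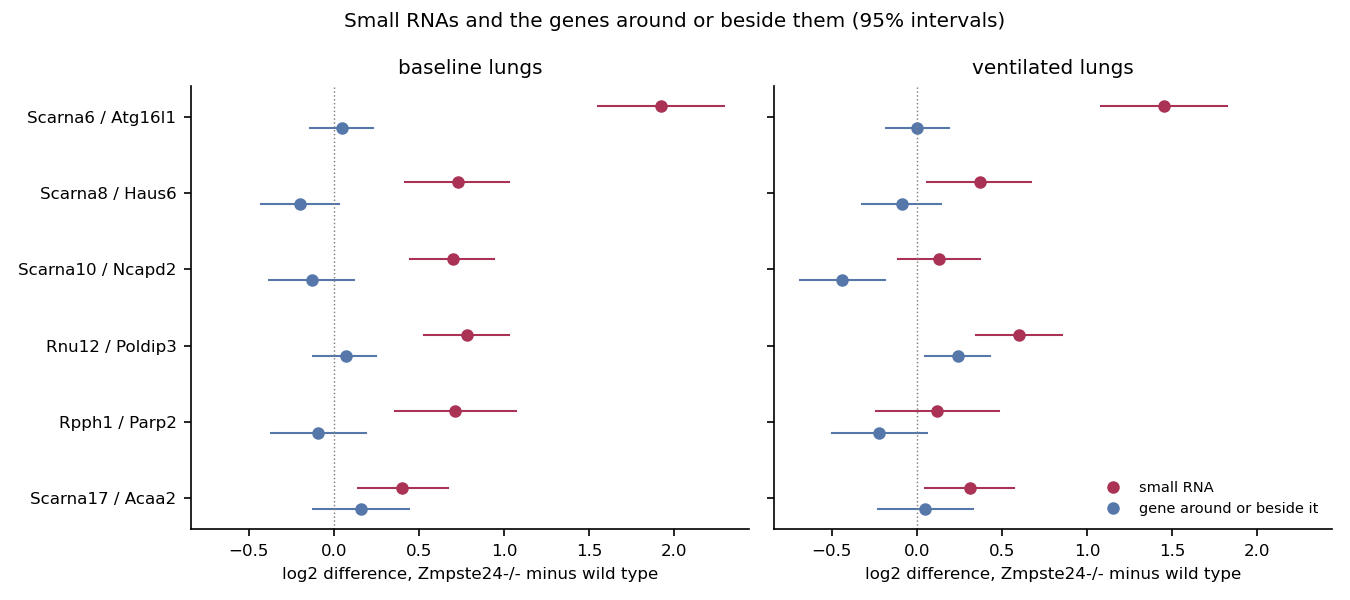
Genotype difference (log2, horizontal axis) with 95% intervals for 6 small RNAs and for the gene that contains each or lies beside it in RefSeq, in baseline and in ventilated lungs. At baseline Scarna6 sits at 1.92 and Atg16l1 at 0.05, and the intervals of all 6 containing or neighbouring genes include 0.

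The gene whose values followed each RNA most closely over the 12 arrays was found by Pearson's r, given as a description because all pairs share the arrays and the genotype groups. For Rnu12 it was Snord13 (r = 0.983), for Scarna6 Snord73b (0.983) and for Rny3 Snord11 (0.964), all small nucleolar RNAs. For Scarna10 it was Snhg17 (0.944), a host transcript of small nucleolar RNAs with group means of 7.34, 8.08, 7.58 and 7.61 in wild type baseline, Zmpste24-/- baseline, wild type ventilated and ventilated Zmpste24-/- lungs. Snhg17 differed by 0.73 ± 0.13 at baseline (adjusted p = 0.00583) and 0.02 ± 0.13 after ventilation (adjusted p = 0.945). For Rny1 it was the ribosomal protein pseudogene Rps15a-ps5 (0.984), for Rpph1 the elongation factor gene Ell2 (0.972), for Scarna8 Cenps (0.966), for Rprl2 Vmn2r58 (0.956), for Scarna17 Mrps34 (0.947) and for Scarna2 Rplp1 (0.872). Vmn2r58 and Cenps had all 4 group means under the array medians, so those likenesses involve dim probes.

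Cell type markers moved with genotype too. Of 4 B cell markers measured 3 were lower in intact Zmpste24-/- lungs, with array means of 7.31 to 7.71 against 7.99 to 8.57 in wild type, and of 4 T cell markers 2 were lower (6.42 to 6.80 against 7.16 to 7.36). After ventilation all 4 B cell markers and 3 T cell markers were lower in mutants. Neutrophil markers gave 1 of 5 higher at baseline (7.48 to 8.35 against 6.87 to 7.76) and 4 of 5 higher after ventilation (9.27 to 9.42 against 7.86 to 8.57). Of 5 endothelial markers 1, Cdh5, was lower in mutants in both conditions, and the array means were 10.72 to 10.93 against 11.12 to 11.18 at baseline. Alveolar type 1 markers gave 0 of 5 past the threshold at baseline (10.32 to 10.44 against 10.15 to 10.19) and 2 of 5 higher after ventilation (10.20 to 10.31 against 9.84 to 10.08). Of 5 cardiac muscle markers 1, Actc1, was lower in ventilated mutants. The array means of the 5 markers were 7.29 to 8.14 there against 8.43 to 10.61 in ventilated wild type lungs. No alveolar type 2 or airway marker passed in either genotype comparison.

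Of 5 hepatocyte markers 3 were lower in intact Zmpste24-/- lungs (array means of the 5 markers 4.63 to 4.77 against 5.92 to 7.88). Markers under the median gene of their group numbered 4 of 5 in those mutants and 2 of 5 in intact wild type lungs. Without wild type baseline array 2, where Alb was 11.52 against 8.12 and 9.18 in the other arrays of its group, 7 of the 10 RNAs were higher in mutants at baseline, Rpph1 being the one lost. Those other arrays still lay above the intact Zmpste24-/- arrays (Alb 6.04, 6.39 and 6.07), so that fit does not remove the difference in Alb. In the ventilation comparison of Zmpste24-/- lungs, in which Scarna10 and Rpph1 fell, 5 of 5 neutrophil markers were higher, and 3 of 5 endothelial, 2 of 4 B cell and 1 of 5 alveolar type 1 markers were lower. The part of these cell types in the differences of the 10 RNAs was not tested.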

How the data were processed

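RNA from 12 lungs was hybridised to one-colour Affymetrix arrays; the labels call the 3 mice of a group biological replicates. The authors deposited log2 expression values for 41345 probes; per the submitters' processing notes RMA and limma were used, in versions that no source here gives. Their range is that of log2 values, and no further normalization was applied. The platform annotation gave 23521 probes 1 symbol, 1814 several and 16010 none. RefSeq (GRCm38.p6) matched 23328 of the 23521 by gene identifier. It gave the nearest measured genes as neighbours, but no strand, so containing genes are given on either strand. Each of 22180 genes took the 1-symbol probe of highest mean.

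All genes were fitted with limma 3.58.1 in R 4.3.3 (4 group means, 8 residual degrees of freedom before moderation), with Benjamini-Hochberg adjustment per contrast, and the procedure was tested on simulated data. An exact permutation test of 3 against 3 cannot give a p below 0.1. The 10 RNAs and all gene lists were chosen with earlier results of these data known. Named genes are the 10 RNAs, Zmpste24, each RNA's most correlated gene outside the 10, and containing or neighbouring genes. Up to 3 genes per list with the smallest adjusted p were also named. Alb's array values were added after values were seen. Alternatives were filters on low values, array-median centring, quantile normalization, a replicate block, probe means, a variance trend, fits of the compared groups only, and leaving out each array. Scan dates were not at hand, and batches of arrays were not tested. Plots were made in Python 3.11.15 (matplotlib 3.10.9).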

Additional observations from a re-analysis of the deposited data

How the results depend on the processing

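Of 985 recomputed values, 937 kept their direction and side of the threshold, 18 calls were lost and 11 were gained. A further 19 differences, not called in either fit, changed sign. No called difference changed sign. In baseline genotype the number of higher RNAs was 7 to 9 of 10 over all alternatives, in ventilated genotype 3 to 5, and in wild type ventilation and the interaction always 0. The fall of RNAs with ventilation in Zmpste24-/- lungs (2 of 10) was the least stable: leaving out 1 array gave 0 to 3, and 0 without Zmpste24-/- baseline array 2 or Zmpste24-/- ventilated array 2. Scarna6 passed there under quantile normalization (-0.57, adjusted p = 0.0422), with only the groups compared (adjusted p = 0.0325), without genes under the median level (adjusted p = 0.0485), and without wild type ventilated array 1 (adjusted p = 0.0328) or 3 (adjusted p = 0.0293). Rnu12 passed there without Zmpste24-/- baseline array 1 (-0.35, adjusted p = 0.0399), and Rprl2 passed in ventilated genotype without wild type ventilated array 1 (0.46, adjusted p = 0.0408). Scarna17 passed at baseline without genes under the median level (adjusted p = 0.0438) and without wild type baseline array 3 (adjusted p = 0.0437). The cause was not tested.

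Equal replicate numbers did not pair the arrays (correlations of deviations -0.152 to 0.153 over 18 pairs, against -0.245 to 0.234 over 36 others). With the replicate block, 9 of 10 RNAs were higher at baseline (Scarna17 0.40, adjusted p = 0.0437), 4 after ventilation, and 2 were lower with ventilation in Zmpste24-/- lungs.

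Counts over all genes moved more. Wild type ventilation gave 1597 genes, 923 with only the groups compared, and 799 without wild type ventilated array 3. Baseline genotype gave 1399 and 646 to 1483 without single arrays, ventilated genotype 2395 and 1369 to 2510. The interaction gave 70, 26 after quantile normalization, 43 with the replicate block, 152 without genes under the median level and 8 to 118 without single arrays. The higher share of baseline genotype calls was 34.9%, and 45.8% after quantile normalization; that of ventilated genotype calls was 43.7%, and 61.1% after array-median centring. Precision was limited by 3 arrays per group; Scarna8 lay near the array medians and background was not estimated, which leaves the size of its differences uncertain.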
